A study of Homo sapiens with 4 samples.

Results

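The linker histone genes H1-1, H1-2, H1-3 and H1-4 were followed in ribosome profiling libraries of A375 cells, an established human melanoma line, in a series about arginine deprivation of cancers that lack the enzyme ASS1. The members were the rows of the count table that share a start or an end with one of these genes in the histone cluster on the short arm of chromosome 6, with places on GRCh38. This gave 4 rows of 78724. The control group was A375 in control medium, and the arginine-free group was A375 in an RPMI-based medium that held glucose, pyruvate and every amino acid but L-arginine, each for 48 h and each with 2 libraries. What the control medium was made of is not given in the sources used here, so the media may differ in more than arginine. Both groups are the same unmodified line, and nothing in the labels says that the libraries of a group came from separate cultures, and a p-value then speaks to library-to-library spread alone, which could be technical.

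Linker histones sit on the nucleosome where DNA enters and leaves it, and help to fold the nucleosome chain into compact chromatin. They are lysine-rich proteins, whereas the core histones H3 and H4 are known for their arginine. The mRNAs of the replication-dependent H1 genes are made mainly while DNA is copied, and end in a stem-loop that the protein SLBP binds, rather than in a poly(A) tail. H1-2 and H1-4 are found in most somatic cells, H1-1 is restricted to fewer tissues, and H1-6 of the same cluster belongs to the testis.

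The 4 genes are scattered through the cluster among the core histone genes, over 217956 bases. H1-1 (ENSG00000124610.5) lies at 26017032 to 26017787, H1-2 (ENSG00000187837.5) at 26054760 to 26056470 and H1-3 (ENSG00000124575.7) at 26234212 to 26234987, all on the minus strand. H1-4 (ENSG00000168298.7) lies at 26156329 to 26157115 on the plus strand. The rows of H1-1, H1-3 and H1-4 are single exons of 756, 776 and 787 bases. The H1-2 row holds 2 nested exons, one of 731 bases that matches RefSeq and one of 1711 bases that runs on past it downstream. No exon of another row overlapped any of them.

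The 250 bases before each annotated transcript start are shown as a description of the 4 genes (RefSeq, GRCh38.p14, 5′ to 3′ on the gene's strand). Whether these bases bear on the footprint counts was not tested. Capitals mark matches on either strand to the H1 box AAACACA, AACAAACACA, the longest run around that box shared by the genes with it on their own strand, the CAAT box CCAAT and the TATA box TATANA; some of these matches overlap each other. The windows are chr6:26017788-26018037 (minus) for H1-1, chr6:26056471-26056720 (minus) for H1-2, chr6:26234988-26235237 (minus) for H1-3 and chr6:26156079-26156328 (plus) for H1-4.
H1-1: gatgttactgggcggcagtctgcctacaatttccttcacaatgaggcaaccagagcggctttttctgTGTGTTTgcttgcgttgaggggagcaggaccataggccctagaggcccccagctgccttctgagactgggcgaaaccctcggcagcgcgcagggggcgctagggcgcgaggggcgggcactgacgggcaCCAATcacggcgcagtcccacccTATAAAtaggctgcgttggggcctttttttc
H1-2: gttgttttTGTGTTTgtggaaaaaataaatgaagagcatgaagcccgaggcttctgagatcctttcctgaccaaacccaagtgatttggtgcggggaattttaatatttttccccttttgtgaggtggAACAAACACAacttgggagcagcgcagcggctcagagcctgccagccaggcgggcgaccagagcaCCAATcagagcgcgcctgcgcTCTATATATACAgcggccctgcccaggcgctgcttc
H1-3: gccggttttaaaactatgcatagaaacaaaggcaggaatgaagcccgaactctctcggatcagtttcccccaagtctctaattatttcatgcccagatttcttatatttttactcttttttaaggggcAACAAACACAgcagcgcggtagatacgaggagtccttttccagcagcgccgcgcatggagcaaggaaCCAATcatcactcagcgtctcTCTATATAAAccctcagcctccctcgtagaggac
H1-4: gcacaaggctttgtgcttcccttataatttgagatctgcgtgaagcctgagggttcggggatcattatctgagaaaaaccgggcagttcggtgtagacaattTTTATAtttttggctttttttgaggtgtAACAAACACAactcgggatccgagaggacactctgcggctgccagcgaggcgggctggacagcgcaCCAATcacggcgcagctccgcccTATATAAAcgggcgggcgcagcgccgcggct

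The H1 box is a promoter element known from linker histone genes, and AAACACA was found before all 4 of these. It was also found before 3 of 5 further H1 family genes with a promoter sequence, and the longer run AACAAACACA before 2 of them. AAACACA was found before 0 of the 18 tested core histone genes of the window that have a promoter sequence, and in 4.82% of 35116 RefSeq promoter windows of the same length. In H1-2, H1-3 and H1-4 the longer run AACAAACACA was present on the gene's own strand, beginning 122, 122 and 120 bases before the start. That run was defined from these genes, so its presence in them was fixed in advance. It was held by 0.13% of all promoter windows, which is not a test of enrichment. H1-1 held the short form alone, on the opposite strand and further out, 183 to 177 bases before the start. H1-2 had a second short match on the opposite strand, 242 to 236 bases before the start. Each gene had a CCAAT on its own strand 50 to 57 bases before the start, and a TATANA that began 29 to 34 bases before it, elements that 15 of the 18 core genes also held, in each case. In all windows these shorter motifs were common, at 32.0% for CCAAT and 17.7% for TATANA. The motifs were chosen with the sequences in view, and a match is a description of letters, not a measured binding site.

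**Figure D1:**
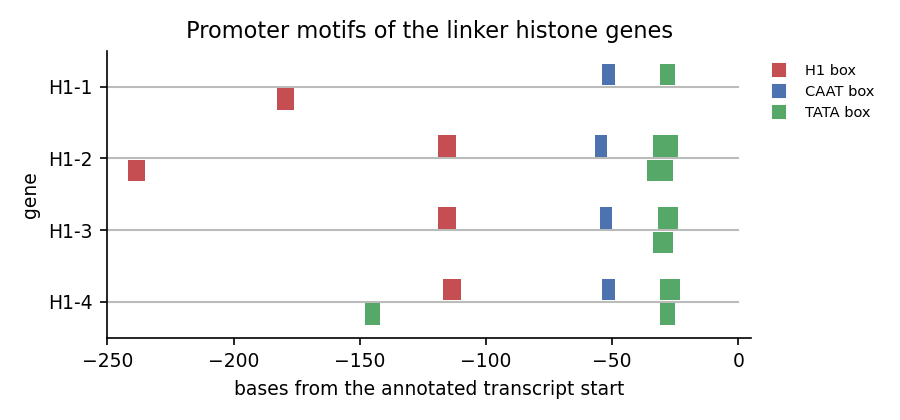
Motif matches in the 250 bases before the start of each linker histone gene, with the distance in bases on the x axis; marks above a line are on the gene's strand and marks below it on the opposite strand. H1-2, H1-3 and H1-4 have the H1 box at nearly the same distance, 111 to 119 bases before the start, and H1-1 has it at 177 to 183 bases on the other strand.

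The control libraries held 105004 and 217989 reads, and the arginine-free libraries 234766 and 192006. Many broadly used genes were at 0 in this table. Its row places are on GRCh38, while the submitters' processing notes name GRCh37. A histone row may therefore miss some of the reads on its gene. How many was not tested. The fitted tests below compare a row with itself between media. They describe the reads that a row holds, and a fold change on part of a gene need not be that of the whole gene. Levels per kilobase, shares of reads and ratios between rows set rows against each other, and such a loss need not be equal among them. Of 8 matched melanocyte marker rows, 4 were at 0, namely MITF, PMEL, TYR and SOX10, so the melanoma label could be checked only in part. The row of the melanosome enzyme TYRP1 held 16 and 25 reads in the controls, against 1 and 0 without arginine, and that of the melanocyte antigen MLANA 6 and 10 against 0 and 2. The row of S100A1 held 1 and 10 against 2 and 5, which overlap, and that of S100B 1 and 1 against 0 and 0.

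Footprints on all 4 linker histone rows were lower in arginine-free medium. By the fitted change, H1-1 was 7.13-fold lower, H1-3 5.71-fold, H1-2 4.24-fold and H1-4 2.6-fold. In all 4 rows both control libraries lay above both arginine-free libraries. Over the whole table, 16.9% of 2526 tested rows were called lower, 16.0% were called higher, and 34.2% had both control libraries above both arginine-free ones. Fewer cells copying DNA and fewer footprints per cell cannot be told apart in such bulk libraries. Without matched mRNA values here, less mRNA and fewer ribosomes on each mRNA cannot be told apart either.

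H1-2, the most heavily read member, held 635 and 1198 reads in the controls, against 336 and 223 without arginine. Scaled for depth to CPM (reads per 1e6 reads on the tested rows, with TMM factors), these were 5984 and 6144 against 1455 and 1401. Both pairs were tight, and the gap between them was many times the spread within either. The means were 6064 ± 113 and 1428 ± 38.5 CPM (SD, n = 2 each), and the log2 fold change was -2.09 (SE 0.23, edgeR adjusted p = 1.41e-05).

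H1-3, a somatic linker histone made mainly with DNA replication, held 350 and 663 reads in the controls, against 118 and 106 without arginine. On the CPM scale these were 3299 and 3400 against 511 and 666. The control libraries were nearly equal, and the arginine-free libraries differed more from each other than the controls did. The log2 fold change was -2.51 (SE 0.24, edgeR adjusted p = 3.28e-06).

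H1-4, with H1-2 the most widespread of the somatic forms, held 369 and 538 reads in the controls, against 242 and 215 without arginine, or 3478 and 2759 against 1048 and 1350 CPM. Its control libraries were the most uneven of the 3 well-read members, with control replicate 1 the higher. The means were 3118 ± 508 and 1199 ± 214 CPM (SD, n = 2 each). The fitted log2 change was -1.38 (SE 0.24, edgeR adjusted p = 0.000621). This was the smallest fitted change of the 4. It was -1.20 without control replicate 1 and -1.15 without arginine-free replicate 1 (in such fits the lone library of a group is assumed to vary like the other group's pair).

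H1-1 was the thinly read member, with 15 and 31 reads in the controls, against 3 and 5 without arginine. Its levels were 141 and 159 against 13 and 31.4 CPM. It met the filter on low counts through the control libraries alone, so a row as low in both media would not have been tested. The total count was 7.6-fold lower after scaling by library totals, with an exact 95% counting interval from 3.55 to 18.6. The log2 fold change was -2.83 (SE 0.50, edgeR adjusted p = 0.000812). It moved to -2.20 without arginine-free replicate 1 and to -3.43 without arginine-free replicate 2, so the order of H1-1 among the members is not fixed by these libraries. It held the fewest reads of the 4 rows, 54 in all, and no member was under the 20 reads set as the least for a test.

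**Figure D2:**
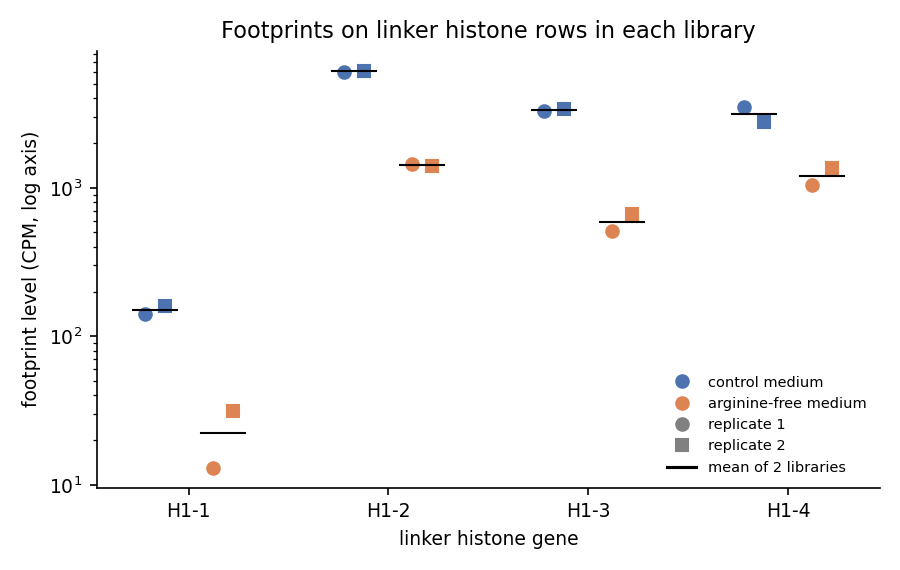
Footprint level of each linker histone row in CPM on a log axis, with 1 point per library and a line at each mean of 2 libraries. In every row both arginine-free libraries lie below both control libraries, and H1-1 stands far under the other rows in both media, at 13 to 159 CPM.

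Levels were compared between members only per kilobase of row. In control medium H1-3 stood at 4316 ± 92.7 CPM per kb, H1-4 at 3962 ± 645, H1-2 at 3544 ± 65.9 and H1-1 at 199 ± 16.5 (SD, n = 2 each). The neighbours H1-3 and H1-4 overlapped, as did H1-4 and H1-2, while H1-1 was far below all of them. H1-2 depends on which of its nested exons is taken as its length, and over the 731 bases of RefSeq its reads would give 8296 ± 154 CPM per kb, above the other 3. In arginine-free medium H1-4 came first, with 1524 ± 272 CPM per kb, against 835 ± 22.5 for H1-2, 758 ± 141 for H1-3 and 29.4 ± 17.2 for H1-1. H1-2 and H1-3 overlapped there, and over the RefSeq length H1-2 would stand at 1953 ± 52.7 CPM per kb.

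Among all 2526 tested rows ranked by CPM per kb, H1-3, H1-4 and H1-2 were 20th, 24th and 30th in control medium. They were 114th, 55th and 104th in arginine-free medium, and H1-1 went from rank 373 to rank 1445.

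The members did not keep the same proportions. H1-3 gave 25.6% and 27.3% of the reads on the 4 rows in the control libraries, and 16.9% and 19.3% in the arginine-free libraries. H1-4 gave 27.0% and 22.1% in the controls, and 34.6% and 39.2% without arginine. For both genes the groups did not overlap. The 95% Wilson intervals, which cover counting error only, were 23.3 to 27.9% and 25.5 to 29.1% for H1-3 in the control libraries, and 14.3 to 19.8% and 16.2 to 22.8% in the arginine-free ones. H1-2 kept the largest share, at 46.4% and 49.3% against 48.1% and 40.6%, and its groups overlapped. H1-1 gave 1.1% and 1.28% in control medium against 0.429% and 0.911%. These shares rest on 1369 and 2430 linker reads in the controls and on 699 and 549 without arginine.

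**Figure D3:**
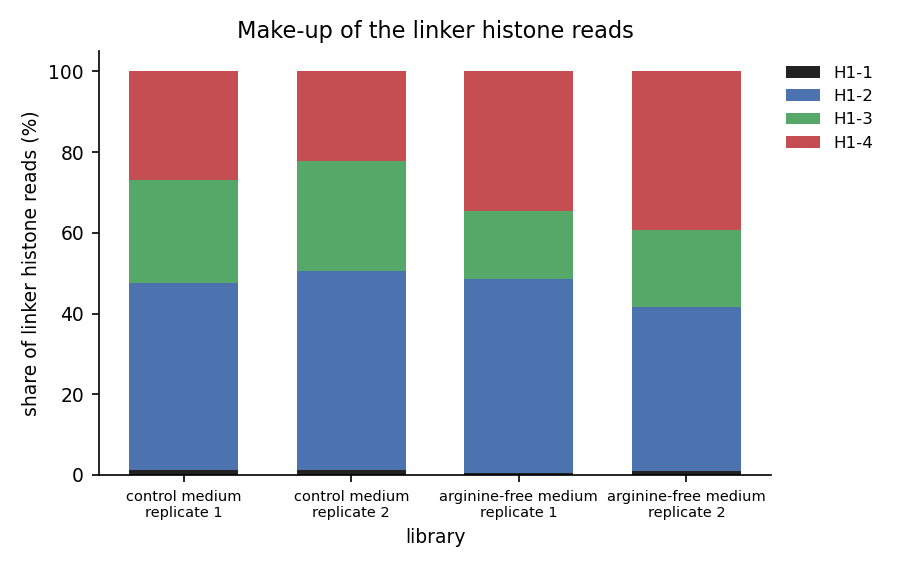
Share of each gene, in percent, in the reads on the 4 linker histone rows of each library. The H1-4 segment grows from 22.1 to 27.0% in the controls to 34.6 to 39.2% without arginine, and the H1-3 segment shrinks from 25.6 to 27.3% to 16.9 to 19.3%.

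The same counts can be written as the ratio of 1 row to another within a library, which, like the shares, needs no scaling between libraries. These ratios restate the shares and are not a second observation. The log2 ratio of H1-3 to H1-4 was -0.08 and 0.30 in the control libraries, close to equal counts, and -1.04 and -1.02 in the arginine-free libraries. The difference was -1.14, with SDs of 0.27 and 0.01 (n = 2 each). H1-2 over H1-4 went from 0.78 and 1.15 to 0.47 and 0.05, a difference of -0.71, and H1-2 over H1-3 from 0.86 and 0.85 to 1.51 and 1.07, a difference of 0.43. The ratios of H1-1 to the others rest on 3 and 5 reads in arginine-free medium. Its log2 ratio to H1-4 went from -4.62 and -4.12 to -6.33 and -5.43, and its ratio to H1-3 overlapped between media. Of the 6 pairs, 5 had groups that did not overlap, but the pairs share rows and so are not separate results. How often other pairs of rows in the table separate in this way was not computed. The smallest p that 2 against 2 libraries allow in an exact two-sided permutation test is 0.333, and that is the value of each of those 5 (0.4 after Benjamini-Hochberg adjustment over the 6 pairs). This permutation test could therefore not pass for any pair, and no other test of the ratios was run. For H1-1 over H1-2 the difference of -0.81 was within the SD of 0.94 between the arginine-free libraries.

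**Figure D4:**
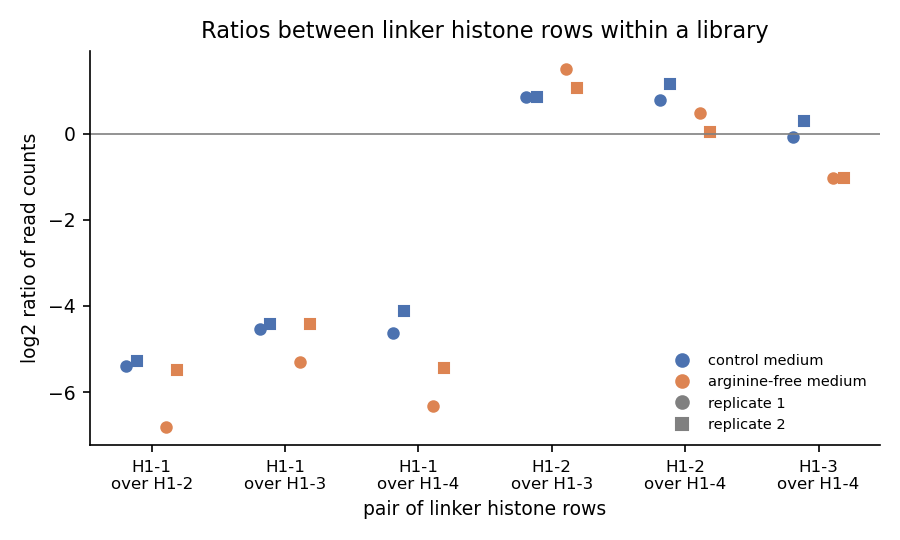
Log2 ratio of read counts between each pair of linker histone rows, with 1 point per library. H1-3 over H1-4 lies near 0 in control medium and near -1 in arginine-free medium, while H1-1 over H1-3 overlaps between the media.

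The linker rows together took 1.3% and 1.11% of all reads in the control libraries, and 0.298% and 0.286% in the arginine-free libraries. The share was thus 4.14-fold higher in control medium, at 1.21% ± 0.134 against 0.292% ± 0.00835 (SD, n = 2 each, exact two-sided permutation p = 0.333, the smallest this design allows). Of the reads on the 30 histone rows of the window, linker rows held 35.6% and 34.9% in the controls and 38.6% and 36.0% without arginine. Of the rows outside the 4 members, 5 were at 0 in every library, and H2BC6 had no row sharing its start or end. The difference of 2.08 percentage points was about the size of the SD of 1.87 between the arginine-free libraries. Without arginine-free replicate 1 it was 0.763. This share also rests on the H4 row H4C5, whose reads were 188 and 332 in the controls and 334 and 358 without arginine. In arginine-free medium H4C5 held the most reads of any core row, and the share was not computed without that row. The core histone share was 4.53-fold higher in control medium. Core rows took 2.22% ± 0.198 of all reads in the controls and 0.491% ± 0.0252 without arginine (SD, n = 2 each). This pooled fold also includes H4C5, so its nearness to the linker value does not show that linker and core rows fell alike.

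Set among the 24 tested histone rows of the window, ordered from the lowest log2 fold change, H1-1 was 12th, H1-3 15th, H1-2 19th and H1-4 21st. The median log2 fold change was -2.30 over the 4 linker rows, -3.07 over the other 20 and -0.03 over all 2526 tested rows. Of those 20, 19 fell, none rose and 1 did not pass, and 4 of the 20 met the filter through the control libraries alone. By class, the medians were -4.43 for 5 H3 rows, -3.13 for 6 H2B rows, -2.79 for 3 H2A rows and -1.81 for 6 H4 rows. The 5 tested H3 rows ran from -5.69 to -3.41, and 2 of them met the filter through the control libraries alone. H3C6, with 6 and 8 reads in the controls and 9 and 5 without arginine, did not meet it. The fitted values of the linker rows were all less negative than those of the tested H3 rows, although H1-1 stood at -3.43 without arginine-free replicate 2. H4C5, an H4 gene at 0.09 (SE 0.24), was the 1 tested histone row that did not pass.

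**Figure D5:**
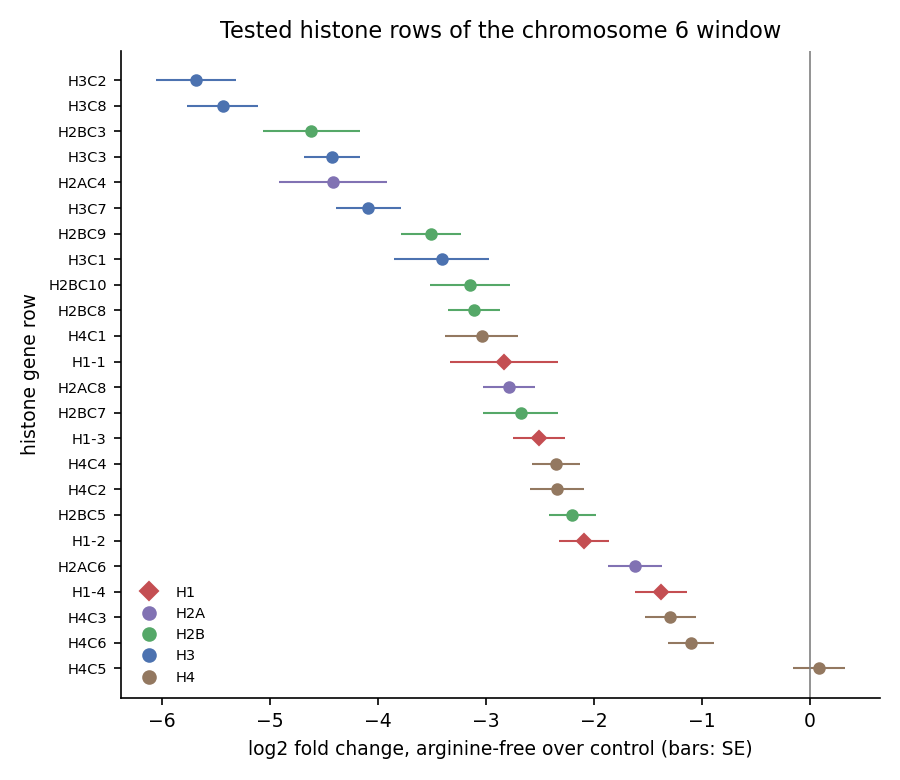
Log2 fold change of the 24 tested histone rows of the window, arginine-free over control, with bars of 1 SE; diamonds are the linker histones. The linker rows lie from -2.83 to -1.38, less negative than every tested H3 row (-5.69 to -3.41) and among H2A, H2B and H4 rows. The H4 rows H4C3, H4C6 and H4C5 are less negative than all linker rows, at -1.29, -1.1 and 0.09.

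The tested rows whose profile over the 4 libraries was most like the mean linker profile were found by the Euclidean distance between log2 CPM values centred on each row's mean. The search covered 183 named rows of the window and of the stretches of chromosomes 5, 9 and 19 that run from SDHA to HMGCS1, VLDLR to VCP and ATP5F1D to CHAF1A. The closest was H2BC5, an H2B gene on chromosome 6, at a distance of 0.16. Its levels were 2026 and 2082 CPM in the controls, against 411 and 484 without arginine. Next came H4C2 at 0.29, the ATP synthase subunit gene ATP5F1D at 0.32, H4C4 at 0.36 and HMGCS1, an early enzyme of cholesterol synthesis, at 0.37. The members themselves lay 0.31 (H1-2), 0.42 (H1-1), 0.44 (H1-3) and 0.73 (H1-4) from their mean profile.

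Further H1 family rows held no reads. H1-6, the testis gene of the same cluster (26107412 to 26108135), was listed at 0 in all 4 libraries, so that levels of up to 28.6 (shallowest library) or 12.8 CPM of all reads (deepest) could have gone unseen, at 3 counts each. The rows of H1-5, another replication-dependent gene further along chromosome 6, of H1-10, which is expressed outside DNA replication, and of H1-7 and H1-8, of the germ line, were also at 0. Whether this reflects the cells cannot be read from these rows, because so many broadly used genes were at 0. Of 7 rows of the window that overlap no histone gene, 6 were at 0. The seventh was HFE, which controls iron uptake, with 3 and 10 reads in the controls, against 3 and 0 without arginine.

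Genes that make or handle histone mRNA and protein, and genes of DNA replication, could hardly be followed. Of 15 matched rows for histone mRNA processing and histone chaperones, 9 were at 0, SLBP among them, and 4 were tested. Of those, 2 fell and 2 did not pass, with a median log2 fold change of -1.46. The row at the place of NPAT, the coactivator of histone gene transcription, held 6 and 14 reads in the controls, against 3 and 3 without arginine (log2 fold change -2.05, SE 0.64, edgeR adjusted p = 0.0236). The row at SYMPK, a scaffold of the histone 3′-end cleavage complex, held 6 and 13 against 4 and 2 (-1.98, SE 0.64, edgeR adjusted p = 0.0282). Both met the filter through the control libraries alone, and both lie where a row need not hold the reads of its gene.

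Of 18 matched DNA replication rows, 11 were at 0 and 3 were tested, of which 1 fell and 2 did not pass. The row of TYMS, which makes the thymidine nucleotide, held 62 and 98 reads in the controls, against 77 and 47 without arginine (log2 fold change -0.77, SE 0.24, edgeR adjusted p = 0.0219). CHAF1A, a subunit of the complex that loads histones behind the replication fork, held 13 and 11 against 12 and 5 reads and did not pass (-0.91, SE 0.53, edgeR adjusted p = 0.208).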

How the data were processed

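Footprint reads were counted by the authors with featureCounts 2.0.1 over exons of the GENCODE 47 basic annotation, with no strand option and none for multi-mapping reads, per the file headers. The deposited values are raw counts, 1 column per library. GRCh37 and hg19, TopHat2, Bowtie2 2.5.2 and cutadapt are named in the submitters' processing notes, while row coordinates match GRCh38, and none were converted. Rows were named by place against RefSeq GRCh38.p14. Linker histone genes resemble each other, so shared reads may be lost or split.

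The whole table went into edgeR 4.0.16 under R 4.3.3, with TMM factors, filterByExpr by group, the quasi-likelihood test and Benjamini-Hochberg adjustment at 0.05. Each SE is the size of the log2 change divided by the root of its F statistic. The test was tried on simulated counts. DESeq2 1.42.0, other factors, filters and left-out libraries were alternatives. Intervals are 95% and cover counting error only, not the spread between libraries. They treat each read as independent, and reads lacked molecular identifiers, so copies of a fragment could make them too narrow. Other steps used Python 3.11.15, pandas 2.3.3 and scipy 1.17.1. Named genes are the 4 members, up to 4 of each list and the 5 rows most like the members; further names, among them the melanocyte markers and H1 family rows past 4, were added after their values were seen. Members and lists were chosen with earlier results of these data known.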

Additional observations from a re-analysis of the deposited data

How the results depend on the processing

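All 4 linker rows stayed lower and past the threshold in every alternative that could be fitted, 12 each for H1-2, H1-3 and H1-4 and 11 for H1-1, which had too few reads for the filter of 50 counts in every library of a group. In each row 4 of these leave out 1 library, so that the other group alone gives the spread and the lone library is assumed to vary like it; passing there is weak support. Log2 fold changes ran from -3.43 to -2.20 for H1-1, -2.32 to -1.98 for H1-2, -2.75 to -2.28 for H1-3 and -1.62 to -1.15 for H1-4, and the largest adjusted p was 0.0316, for H1-1 with DESeq2. Calls over the table moved more: lower and higher rows numbered 428 and 405, against 147 and 162 with DESeq2 (9443 rows given), 146 and 138 with at least 50 counts (580 rows tested), and 243 and 270 without control replicate 2. Leaving out 1 library at a time gave 243 to 389 lower and 270 to 418 higher rows. The cause of these moves was not tested, although fewer rows or libraries entered some by construction. The change in linker share was -0.917 percentage points of all reads, from -1.01 to -0.823 with 1 library left out, and -1.16 of nuclear reads. The change in the share of histone reads was 2.08, from 0.763 to 3.41 with 1 library left out. Taken as linker reads in percent of core histone reads, it was 5.2. Both of these measures include the reads on H4C5, and neither was computed without that row. The labels name no pairing of libraries by replicate number. The correlation of deviations was -0.0528 over 2526 rows, which with so few libraries cannot exclude a shared culture or batch. With the replicate block, 372 rows were lower and 354 higher, and the linker rows stood at -2.78, -2.09, -2.52 and -1.38, all past the threshold. Depth limits H1-1 most, with 3 and 5 reads in arginine-free medium.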
